A study of Mus musculus with 7 samples.

Results

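The collagen genes were taken as all genes whose array annotation symbol begins with Col, followed by a number, the letter a and a second number. Of 18193 genes measured, 42 met this rule, read by 82 probe sets that each list 1 gene. Levels were measured on 7 Affymetrix mouse arrays and are given as log2 intensity, so that a difference of 1 unit is a 2-fold change. A single array held RNA from a subclone of mIMCD-3, a mouse inner medullary collecting duct cell line grown to confluency. The other arrays held tissue dissected from mouse kidneys at E12.5 (embryonic day), with 2 biological replicates each of ureteric bud tip, ureteric bud stalk and metanephric mesenchyme. At this stage the ureteric bud, an epithelial tube, branches at its tips into the mesenchyme while its stalk lengthens. No genetic change or drug treatment is named for any group, and how many embryos went into each dissection is not given in the sources used here.

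Collagens are secreted or membrane-bound proteins that fold into triple helices of 3 chains. Fibrillar collagens form the banded fibres of connective tissue, and FACIT collagens (fibril-associated collagens with interrupted triple helices) sit on their surface. Type IV chains form the sheet of the basement membrane under epithelia, and multiplexins such as type XVIII are attached to it. Transmembrane collagens are anchored in the cell surface, type VI forms beaded filaments around cells, and type VIII and type X are short chains that form networks. In the developing kidney the ureteric bud lies on a basement membrane, and the stroma around it produces much of the fibrillar collagen. The 42 genes comprised 11 fibrillar, 9 FACIT, 6 basement membrane, 5 beaded filament, 4 transmembrane, 3 short chain and 2 multiplexin collagens, with Col7a1 of anchoring fibrils and Col26a1 outside these classes.

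The dissections differed in the markers of cells other than bud epithelium, and this touches every comparison below. The epithelial cadherin gene Cdh1 had log2 intensities of 11.09 and 10.97 in tip, against 10.45 and 10.49 in stalk and 3.998 and 3.68 in mesenchyme. Foxd1, a transcription factor gene of renal stroma, stood at 6.63 and 6.14 in tip, 9.94 and 9.88 in stalk and 11.12 and 11.06 in mesenchyme. Six2, which marks nephron progenitors, had 6.80 and 6.86 in tip, 7.58 and 7.63 in stalk and 9.88 and 9.84 in mesenchyme. The stalk arrays therefore carried epithelial and stromal markers together. Summed over 8 renal stroma markers, linear intensity was 1920 to 2443 in tip, 13265 to 14038 in stalk and 13350 to 14100 in mesenchyme. Over 7 endothelial markers the sums were 644 to 697 in tip, 1804 to 1852 in stalk and 2813 to 3098 in mesenchyme. Of the stroma markers 7 of 8 were lower in tip than in stalk, and all 7 endothelial markers were. Tip was also lower than stalk for 5 of 6 nephron progenitor, 3 of 5 macrophage and 1 of 5 smooth muscle markers, and higher for 3 of 6 epithelial markers. Over all genes 6.97% were lower and 2.86% higher in tip than in stalk, so 1 call among 5 smooth muscle markers says little. Fewer cells of a type and less RNA per cell cannot be told apart in such bulk samples.

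Tip and stalk differed for many collagen genes. In 1 limma fit of the 6 tissue arrays, 20 of 42 collagen genes (47.6%) were lower in tip at a Benjamini-Hochberg adjusted p under 0.05, against 6.97% of all genes. None was called higher in this fit (0 of 42, and 3 at an unadjusted p under 0.05), against 2.86% of all genes. With the replicate number as a block, 3 were called higher and 21 lower, and without tip replicate 1 also 3 higher. The median difference was -0.44 over the collagen genes and 0.07 over all genes. Both tip arrays lay below the 4 other tissue arrays for 20 collagen genes, against 16.3% of all genes. The stroma marker sums above moved the same way, and their part in the collagen differences was not tested.

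**Figure D1:**
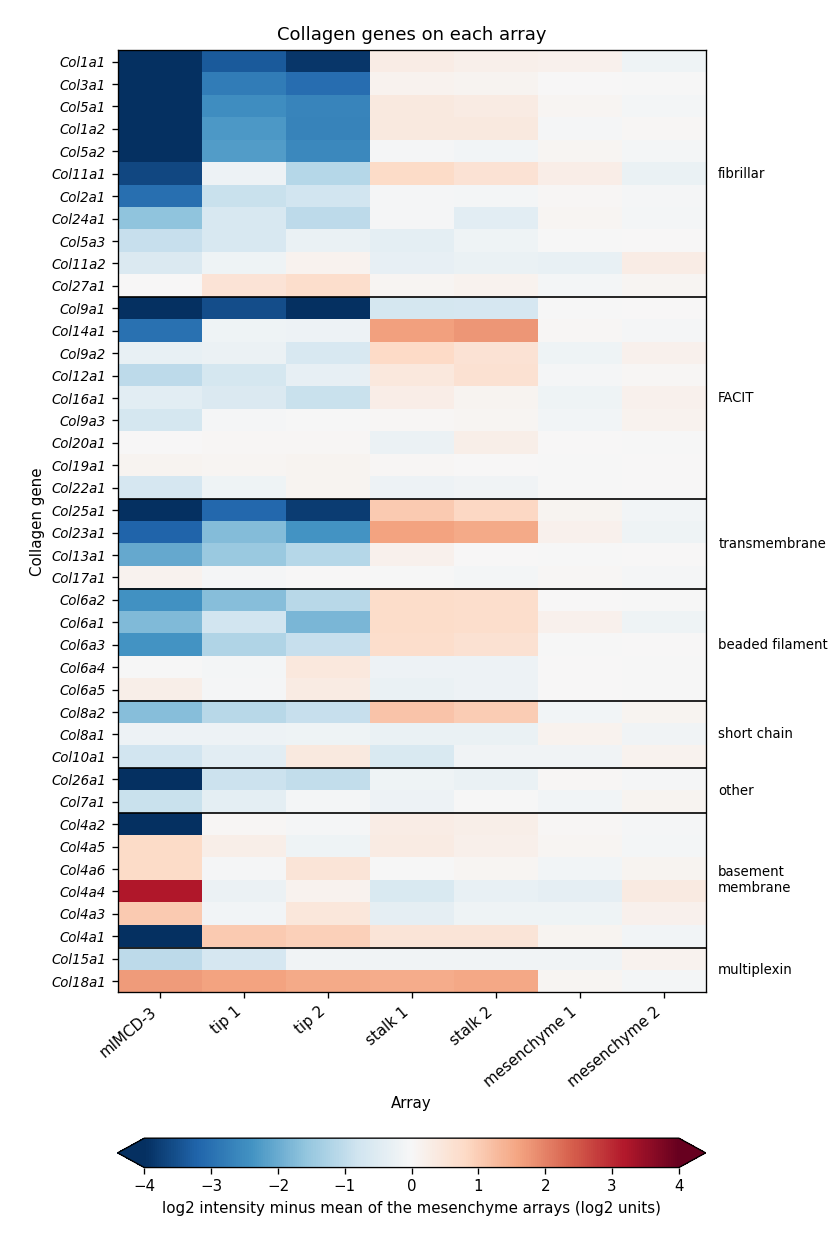
Log2 intensity of the 42 collagen genes (rows, grouped by class) on each of the 7 arrays (columns), minus the gene's mean of the 2 mesenchyme arrays. The colour scale ends at 4 log2 units in either direction, and both tip columns are blue for most fibrillar, transmembrane and beaded filament genes that are near white or red in both stalk columns.

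Fibrillar collagens were lower in tip for 7 of 11 genes, with a median difference of -1.34 against stalk. Col1a1, which encodes a chain of type I collagen, the main fibre of interstitial matrix, had 6.45 and 5.92 in tip, against 10.11 and 10.02 in stalk and 9.98 and 9.65 in mesenchyme. Its tip level was 14.7-fold lower than in stalk (difference -3.88 ± 0.20, SE; limma adjusted p = 4.02e-05), and the stalk and mesenchyme arrays lay together far above both tip arrays. Its second probe set gave -2.43 ± 0.16 (limma over probe sets, adjusted p = 8.74e-05). The partner chain Col1a2 had 8.83 and 8.48 in tip, 11.52 and 11.53 in stalk and 11.09 and 11.18 in mesenchyme. Type III collagen, which forms reticular fibres, followed the same order, as Col3a1 had 9.39 and 9.12 in tip, 12.30 and 12.28 in stalk and 12.19 and 12.16 in mesenchyme.

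Type V collagen starts fibril assembly, and both of its main chains were lower in tip. Col5a1 had 7.33 and 7.20 in tip, against 10.22 and 10.17 in stalk and 9.90 and 9.76 in mesenchyme. Col5a2 had 7.39 and 7.07 in tip, against 9.59 and 9.54 in stalk and 9.70 and 9.57 in mesenchyme. The stalk and mesenchyme arrays of either gene lay close together, and both tip arrays lay far below them. The tip-to-stalk differences of Col1a2, Col3a1, Col5a1 and Col5a2 were -2.88 ± 0.15, -3.04 ± 0.14, -2.92 ± 0.13 and -2.33 ± 0.15 (limma adjusted p between 2.89e-05 and 8.62e-05). Col3a1 and Col5a2 are next to each other in the RefSeq gene order, so these values come from adjacent genes. Sizes varied with the probe set, as one of Col5a1 gave -1.53 ± 0.19 (limma over probe sets, adjusted p = 0.00169) and one of Col1a2 gave -0.22 ± 0.21 (adjusted p = 0.609). That Col1a2 probe set lay between 2.93 and 3.98, below every array's lower quartile. Another Col1a2 probe set gave -3.38 ± 0.16 (limma over probe sets, adjusted p = 2.32e-05).

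Smaller differences were found for the fibrillar genes known from cartilage. Col2a1, the gene of the main cartilage collagen, had 8.72 and 8.85 in tip, 9.57 and 9.54 in stalk and 9.67 and 9.55 in mesenchyme, and was 1.71-fold lower in tip than in stalk (difference -0.77 ± 0.13; limma adjusted p = 0.00756). Col11a1, whose product joins the same fibrils, had 6.68 and 5.76 in tip, 7.64 and 7.47 in stalk and 7.16 and 6.61 in mesenchyme. Its tip arrays lay far apart, and the higher one exceeded the lower mesenchyme array (difference from stalk -1.34 ± 0.31; limma adjusted p = 0.0325). Without tip replicate 2 the difference of Col11a1 was -0.87, and it was no longer called (limma adjusted p = 0.089). Both calls were also lost without either stalk array, at adjusted p = 0.0878 and 0.071 for Col2a1 and 0.112 and 0.0624 for Col11a1. Of 6 cartilage markers, among them aggrecan and matrilin genes, limma called 0 between tip and stalk (2 higher and none lower where p was not adjusted). Over all genes 2.86% were higher and 6.97% lower in tip, so 0 of 6 is near the background.

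The 4 other fibrillar genes were not called between tip and stalk. Col27a1, a minor fibrillar collagen, had 7.97 and 8.14 in tip, 7.50 and 7.58 in stalk and 7.34 and 7.53 in mesenchyme, so that both tip arrays lay highest. Its tip-to-stalk difference of 0.51 ± 0.14 missed the threshold (limma adjusted p = 0.0601). It passed when replicate number entered as a block (adjusted p = 0.00947) or without tip replicate 1. The second Col27a1 probe set gave a smaller difference that was not called, 0.30 ± 0.14 (limma over probe sets, adjusted p = 0.303). Col24a1 had the opposite sign, at 3.72 and 3.31 in tip, 4.32 and 3.94 in stalk and 4.43 and 4.30 in mesenchyme (difference from stalk -0.62 ± 0.19; limma adjusted p = 0.0953, with 0.00599 under the replicate block and 0.0408 without tip replicate 1). Col24a1, Col5a3 and Col11a2 stayed below the array median on every array.

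Transmembrane collagens held the most negative difference of the family. Col25a1, whose product is also found in amyloid plaques, had 4.98 and 4.32 in tip, against 9.17 and 8.95 in stalk and 8.21 and 8.02 in mesenchyme. It was 21.3-fold lower in tip than in stalk (difference -4.41 ± 0.22; limma adjusted p = 3.62e-05). Its second probe set, between 5.96 and 6.84 on all arrays, showed no such difference (-0.02 ± 0.27; limma over probe sets, adjusted p = 0.981). Col23a1 had 5.78 and 5.14 in tip, 9.13 and 9.03 in stalk and 7.70 and 7.35 in mesenchyme, a 12.3-fold lower tip level than in stalk (difference -3.62 ± 0.22; limma adjusted p = 7.86e-05). Col13a1, a collagen of cell adhesion sites, had 5.45 and 5.81 in tip, 7.12 and 6.95 in stalk and 6.95 and 6.95 in mesenchyme, a difference of -1.41 ± 0.16 from stalk. In these 3 of the 4 transmembrane genes no tip array reached the level of any stalk or mesenchyme array, by the brightest probe set. The same held for 16.3% of all genes. Col17a1, the hemidesmosome collagen, lay between 3.23 and 3.46 on all 7 arrays, below every array's lower quartile, and was not called in any comparison.

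The FACIT group was lower in tip for 5 of 9 genes, with a median of -0.92. Col9a1, whose product coats type II collagen fibrils in cartilage, had 7.49 and 7.05 in tip, 10.32 and 10.35 in stalk and 11.01 and 11.05 in mesenchyme. Its tip level was 8.38-fold lower than in stalk (difference -3.07 ± 0.17; limma adjusted p = 4.23e-05), and of the 3 tissues mesenchyme was highest. The other Col9a1 probe set gave a smaller difference, -1.52 ± 0.16 (limma over probe sets, adjusted p = 0.00084). Col14a1, which binds type I fibrils, had another pattern, at 6.61 and 6.57 in tip, 8.41 and 8.54 in stalk and 6.83 and 6.74 in mesenchyme. Here tip and mesenchyme lay close together and stalk stood 3.69-fold above tip (tip minus stalk -1.89 ± 0.13; limma adjusted p = 0.000106).

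Further FACIT genes were lower in tip by about 1 log2 unit. Col12a1, which like Col14a1 binds interstitial fibrils, had 6.70 and 7.06 in tip, 7.82 and 8.02 in stalk and 7.35 and 7.45 in mesenchyme (tip minus stalk -1.04 ± 0.16; limma adjusted p = 0.00585). Another of its 4 probe sets gave -3.62 ± 0.18 for the same contrast, so the size for Col12a1 rests on the probe set chosen. Col9a2 had 4.45 and 4.06 in tip, 5.51 and 5.28 in stalk and 4.52 and 4.88 in mesenchyme, all below the array medians (tip minus stalk -1.14 ± 0.19; limma adjusted p = 0.00848, and 0.0556 without stalk replicate 1). Col16a1 had 6.39 and 6.06 in tip, 7.23 and 7.06 in stalk and 6.79 and 7.12 in mesenchyme (tip minus stalk -0.92 ± 0.17; limma adjusted p = 0.0144). The call for Col16a1 was lost without stalk replicate 1 (adjusted p = 0.108) or without tip replicate 2 (adjusted p = 0.06). Col9a3, Col19a1, Col20a1 and Col22a1 were not called, with differences between -0.11 and 0.14. For Col9a3 a second probe set gave -1.13 ± 0.24 (limma over probe sets, adjusted p = 0.0278), which its brightest probe set did not show, and a dimmer probe set of Col22a1 was also lower in tip (-0.62 ± 0.14; adjusted p = 0.0303).

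**Figure D2:**
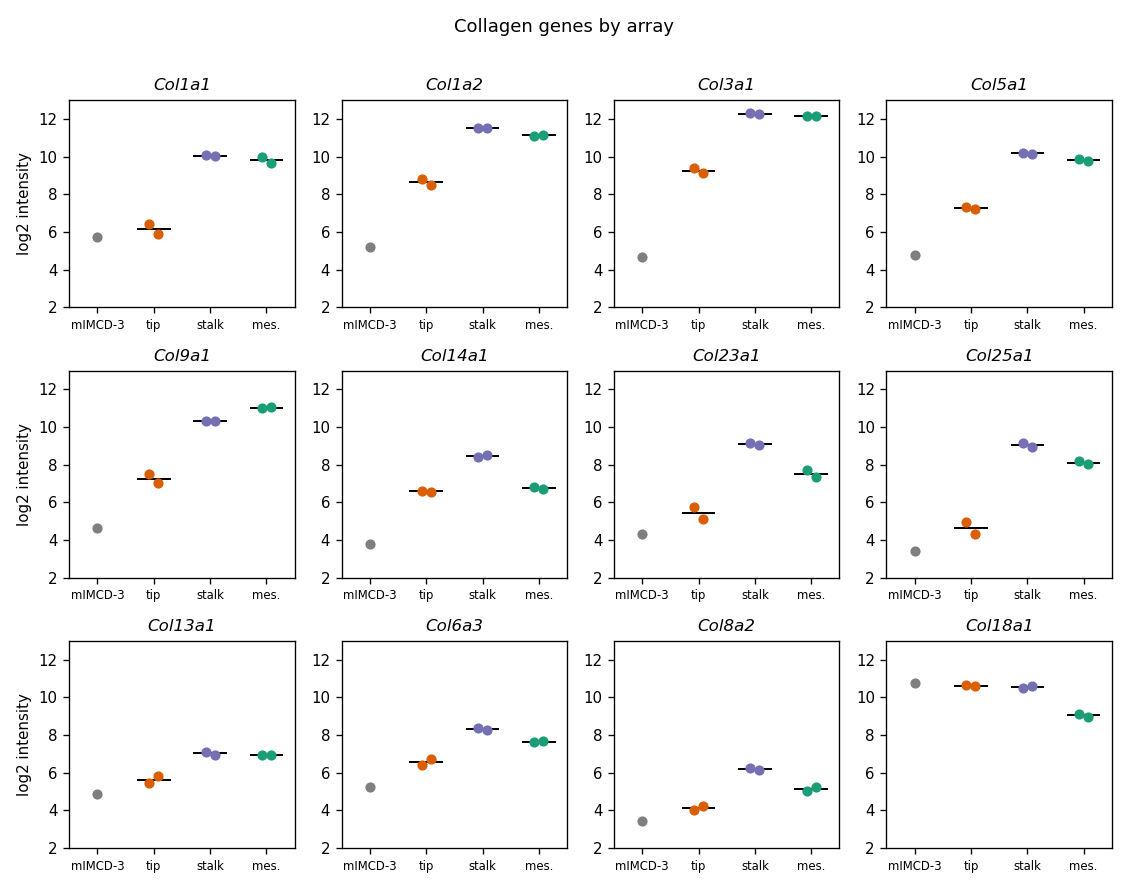
Log2 intensity of 12 collagen genes on each array, with 1 point per array, a bar at the mean of the 2 replicates, and "mes." for metanephric mesenchyme. Replicate points lie close together, tip lies well below stalk for the first 11 genes, and Col18a1 shows mIMCD-3, tip and stalk near 10.6 and mesenchyme near 9.1.

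Type VI collagen, the beaded filament type, was lower in tip for its 3 main chains. Col6a1 had 6.51 and 5.44 in tip, 8.02 and 7.99 in stalk and 7.45 and 7.11 in mesenchyme. Col6a2, its neighbour in gene order, had 7.03 and 7.62 in tip, 9.49 and 9.46 in stalk and 8.76 and 8.73 in mesenchyme. Col6a3 had 6.44 and 6.74 in tip, 8.36 and 8.25 in stalk and 7.63 and 7.67 in mesenchyme. For all 3 genes stalk was highest, mesenchyme intermediate and tip lowest, with no overlap between tissues. Both stalk arrays lay above the other tissue arrays for 8.20% of all genes. Stalk against mesenchyme was called only for Col6a3, not for Col6a1 (0.73 ± 0.31; limma adjusted p = 0.38) or Col6a2 (0.73 ± 0.19; adjusted p = 0.0912). The tip-to-stalk differences were -2.04 ± 0.31, -2.15 ± 0.19 and -1.72 ± 0.14 (limma adjusted p = 0.00566, 0.000415 and 0.000306). The tip arrays of Col6a1 lay further apart than those of the other chains, with replicate 1 higher for Col6a1 and replicate 2 higher for Col6a2 and Col6a3. Col6a4 and Col6a5 lay below the array median on every array and were not called, although without tip replicate 1 both were higher in tip (0.63 and 0.58; limma adjusted p = 0.0249 and 0.0342).

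Among the remaining classes, Col8a2, a chain known from the corneal basement membrane, had 4.02 and 4.21 in tip, 6.26 and 6.15 in stalk and 5.03 and 5.25 in mesenchyme. Tip was 4.26-fold lower than stalk (difference -2.09 ± 0.14; limma adjusted p = 0.000116), and again stalk was highest. Col8a1 and Col10a1, the gene of hypertrophic cartilage collagen, lay below the array median on all arrays and were not called. Col26a1 had 8.41 and 8.26 in tip, 9.08 and 9.01 in stalk and 9.30 and 9.22 in mesenchyme (tip minus stalk -0.71 ± 0.13; limma adjusted p = 0.0112). Averaged with its second, dim probe set, Col26a1 was not called (difference -0.26; adjusted p = 0.185), nor was it without either stalk array (adjusted p = 0.137 and 0.0873). Col7a1 ranged between 6.54 and 7.06 in the tissues and was not called.

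**Figure D3:**
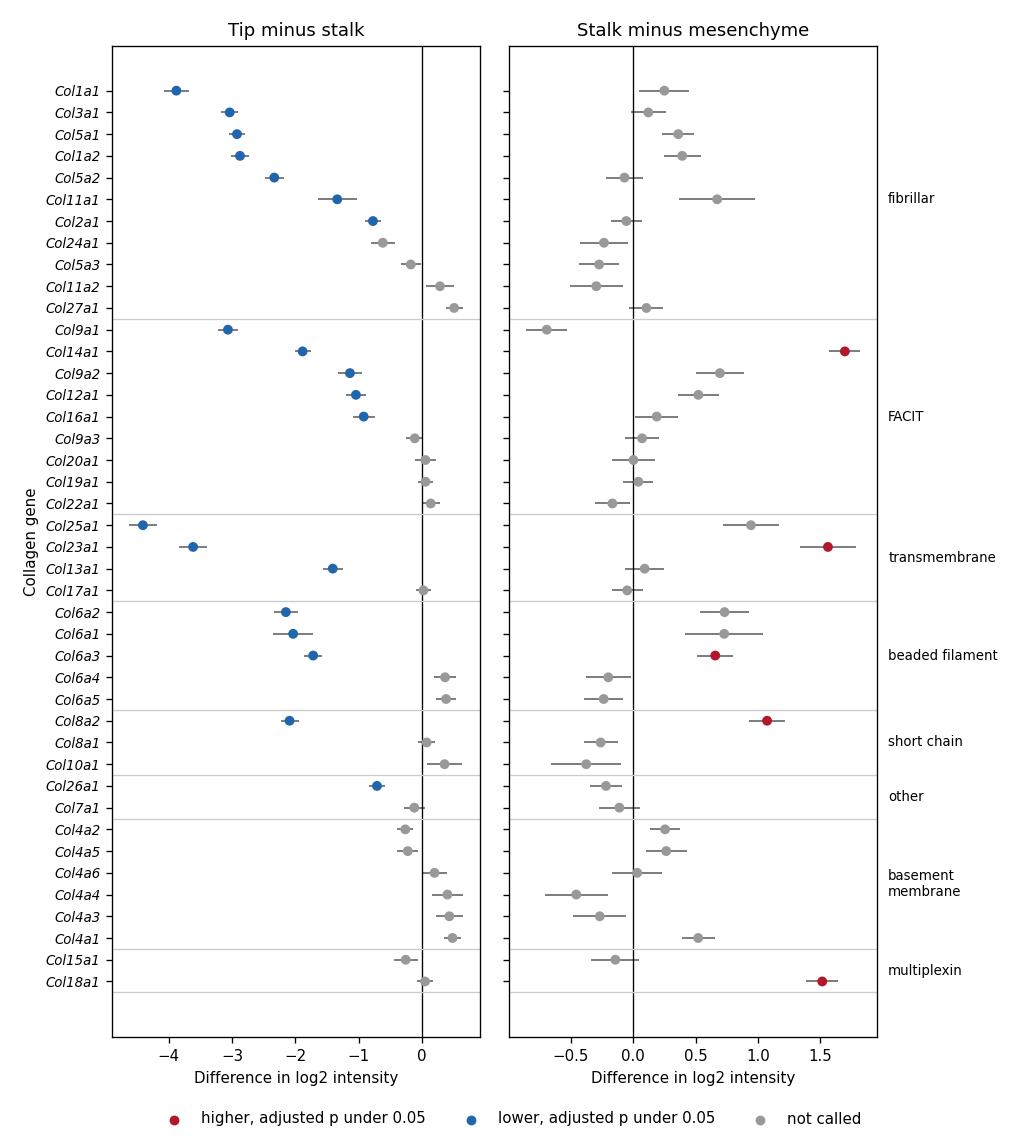
Difference in log2 intensity of tip minus stalk (left) and stalk minus mesenchyme (right) for the 42 collagen genes by class, with bars of 1 standard error of the limma fit. The horizontal axes of the panels have different ranges, since tip minus stalk reaches -4.41 (Col25a1) while stalk minus mesenchyme runs only from -0.69 (Col9a1) to 1.70 (Col14a1).

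Basement membrane collagens are given next. Of the 6 type IV chains, limma called 0 between tip and stalk in either direction (1 higher and none lower where p was not adjusted). Over all genes 2.86% were higher and 6.97% lower in tip, so 0 of 6 is near the background. The median difference of the 6 chains was 0.30. Col4a1, which encodes a chain of the widespread type IV network, had 11.11 and 11.004 in tip, 10.57 and 10.57 in stalk and 10.16 and 9.95 in mesenchyme. On this brightest probe set the tissues thus ranked tip, stalk, mesenchyme without overlap, with tip highest. Col4a1 was 2.01-fold higher in tip than in mesenchyme (difference 1.01 ± 0.13; limma adjusted p = 0.00147). Tip against stalk (0.49 ± 0.13; adjusted p = 0.0658) and stalk against mesenchyme (0.52 ± 0.13; adjusted p = 0.0801) missed the threshold, and both passed with the replicate block (adjusted p = 0.0147 and 0.0171). The second Col4a1 probe set gave 0.50 ± 0.14 for tip against mesenchyme, a smaller difference in the same direction (limma over probe sets, adjusted p = 0.0472). On it tip (9.84 and 9.66) and stalk (9.72 and 9.59) overlapped, with a difference of 0.10 ± 0.14 (limma over probe sets, adjusted p = 0.734).

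Col4a2 encodes the partner of the Col4a1 chain in the same triple helix, but its tissue values hardly varied. It had 9.19 and 9.09 in tip, 9.43 and 9.37 in stalk and 9.19 and 9.10 in mesenchyme, a tip-to-mesenchyme difference of -0.01 ± 0.12 (limma adjusted p = 0.989). Each gene was measured by other probe sets, so the levels themselves cannot be set against each other. The 2 genes are adjacent and run in opposite directions. In RefSeq (GRCm38.p6) their annotated starts lie so close that the first bases of one gene overlap those of the other, and the 22 bases at chr8:11312805-11312826 (plus strand, the direction of Col4a2) belong to both transcripts. They are shown because one short stretch carries the starts of a pair of genes whose tip-to-mesenchyme differences were 1.01 and -0.01. The value of 1.01 is from the brightest Col4a1 probe set, and the other Col4a1 probe set gave 0.50.
Shared start of Col4a1 and Col4a2: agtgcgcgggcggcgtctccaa

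The other type IV chains varied little among the tissues. Col4a3, Col4a4 and Col4a5 encode the chains of the mature glomerular basement membrane, which are affected in Alport syndrome. Col4a5 had 8.96 and 8.56 in tip, 9.03 and 8.93 in stalk and 8.78 and 8.66 in mesenchyme. Col4a6 had 6.12 and 6.69 in tip, 6.17 and 6.24 in stalk and 6.05 and 6.30 in mesenchyme, and its tissues overlapped. Col4a3 and Col4a4 remained below the array median on all 6 tissue arrays, between 4.37 and 5.18 and between 3.28 and 4.25. Col4a3 was called 0.44 higher in tip than in stalk only with the replicate block (adjusted p = 0.0372, against 0.291 without it).

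Col18a1 encodes type XVIII collagen, a heparan sulfate proteoglycan of epithelial and vascular basement membranes, and it separated bud from mesenchyme. It had 10.65 and 10.58 in tip, 10.52 and 10.61 in stalk and 9.12 and 8.98 in mesenchyme. Tip was 2.96-fold higher than mesenchyme (difference 1.57 ± 0.13; limma adjusted p = 0.000105) and stalk was 2.86-fold higher (difference 1.51 ± 0.13; limma adjusted p = 0.000396). Tip and stalk overlapped (difference 0.05 ± 0.13; limma adjusted p = 0.846). The second Col18a1 probe set gave 1.62 for tip and 1.57 for stalk. The other multiplexin gene, Col15a1, had 5.76 and 6.28 in tip, 6.28 and 6.27 in stalk and 6.27 and 6.56 in mesenchyme and was not called. Without tip replicate 2 it was lower in tip than in mesenchyme (-0.66; limma adjusted p = 0.0427).

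**Figure D4:**
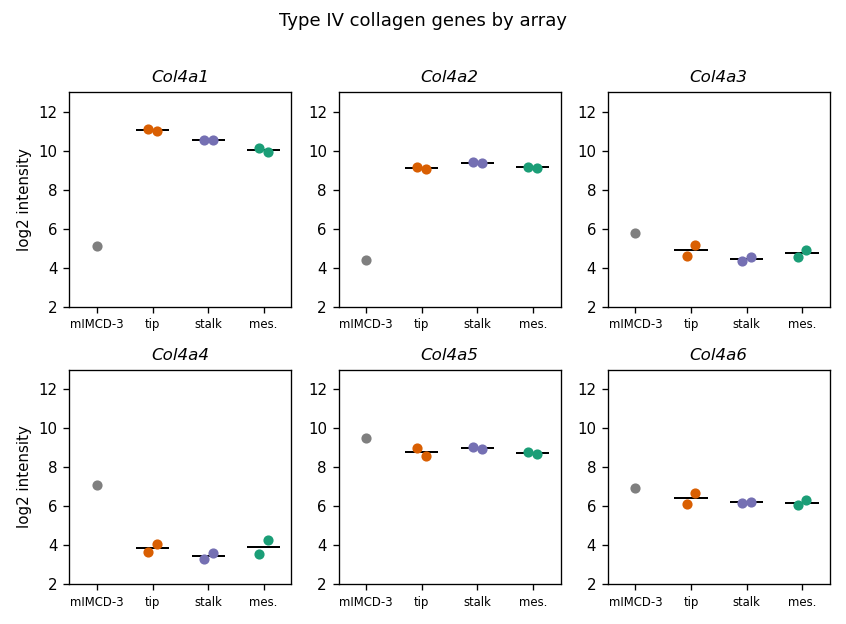
Log2 intensity of the 6 type IV collagen genes on each array, with 1 point per array, a bar at the mean of the 2 replicates, and "mes." for metanephric mesenchyme. For Col4a1, shown by its brightest probe set, the tissues are ordered tip, stalk, mesenchyme without overlap. The mIMCD-3 point lies far below the tissues for Col4a1 and Col4a2 and above them for Col4a4.

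Stalk against mesenchyme gave fewer calls. Of 42 collagen genes 5 (11.9%) were higher in stalk, against 4.30% of all genes, and 0 were lower (1 at an unadjusted p under 0.05), against 1.24% of all genes. The median difference was 0.08 for the collagen genes and -0.04 for all genes. The 5 genes were Col14a1, Col23a1, Col18a1, Col8a2 and Col6a3, which belong to 5 different classes. Both stalk arrays lay above the 4 other tissue arrays for 16 collagen genes, against 8.20% of all genes.

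Col14a1 was 3.24-fold higher in stalk than in mesenchyme (difference 1.70 ± 0.13; limma adjusted p = 0.000208), and all 3 of its probe sets were called in this direction. Col23a1 was 2.95-fold higher (difference 1.56 ± 0.22; limma adjusted p = 0.00599), again with all 3 probe sets. Col8a2 was 2.1-fold higher (difference 1.07 ± 0.14; limma adjusted p = 0.00403). For these genes the stalk arrays exceeded every tip and mesenchyme array. Col6a3 was 1.58-fold higher (difference 0.66 ± 0.14; limma adjusted p = 0.0431), and this call was lost without any 1 of the stalk or mesenchyme arrays (adjusted p between 0.182 and 0.376). The stroma marker sums of stalk and mesenchyme overlapped. Of 8 stroma markers 1 was higher and 2 were lower in stalk, against 4.30% and 1.24% of all genes. The nephron progenitor sums were 1279 to 1340 in stalk and 5485 to 6050 in mesenchyme, and the part of these cells in the collagen values was not tested.

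Fibrillar collagens of stalk and mesenchyme gave no call in the reported limma fit (0 of 11, against 2 higher and none lower where p was not adjusted). Over all genes 4.30% were higher and 1.24% lower in stalk, so 0 of 11 is near the background. With trend and robust variance Col1a2 was called higher in stalk (0.39 ± 0.10; limma adjusted p = 0.0222, against 0.29 as reported). The differences of the fibrillar genes ran from -0.30 to 0.67, and that of Col3a1 was 0.12 ± 0.14. With the replicate block, 7 more collagen genes were called between stalk and mesenchyme. Higher in stalk with the block were Col25a1 (0.94; adjusted p = 0.00269), Col6a2 (0.73; adjusted p = 0.0234), Col9a2 (0.69; adjusted p = 0.0384), Col11a1 (0.67; adjusted p = 0.039), Col12a1 (0.52; adjusted p = 0.0195) and Col4a1. Another Col12a1 probe set was called higher in stalk without the block (0.97 ± 0.18; limma over probe sets, adjusted p = 0.0244), as was one of Col9a3 (1.30 ± 0.24; adjusted p = 0.0232), whose brightest probe set gave 0.07. Col9a1 was the 1 gene called lower in stalk with the block (-0.69; adjusted p = 0.0147, against 0.0586 without it). Without either tip array, Col25a1, Col6a1 (0.73; adjusted p = 0.038) and Col6a2 were called higher in stalk and Col9a1 lower (adjusted p = 0.0123), which made 8 higher and 1 lower.

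Tip against mesenchyme shares the tip arrays with the first comparison and the mesenchyme arrays with the second. Of 42 collagen genes 17 (40.5%) were lower in tip, against 8.37% of all genes, and 3 (7.14%) were higher, against 7.38% of all genes, which is near the background. The median difference was -0.42 for the collagen genes and 0.01 for all genes. Lower in both tip comparisons were 16 of the 42 genes, and the share of all genes lower in both was not computed. Col9a1 had the most negative value (-3.76 ± 0.17, 13.6-fold lower; limma adjusted p = 6.91e-06; -1.92 with its other probe set), followed by Col1a1 (-3.63 ± 0.20; -2.36 with its other probe set) and Col25a1 (-3.47 ± 0.22; not called with its other probe set, at -0.15). A second probe set of Col5a1 gave -0.89 and one of Col6a2 gave -0.76, both called, while one of Col23a1 gave -0.55 and a dim one of Col1a2 gave -0.40, both not called. Further probe sets of Col23a1 and Col1a2 were called, at -1.58 and -3.03. The genes higher in tip were Col18a1, Col4a1 and Col27a1 (0.62 ± 0.14; limma adjusted p = 0.0188).

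Some of these calls depended on single arrays, and Col24a1 lay below the array median on every array. Col27a1 was not called without mesenchyme replicate 1 (adjusted p = 0.141), tip replicate 2 (adjusted p = 0.0574) or either stalk array (adjusted p = 0.0505). Col24a1 (-0.85 ± 0.19; limma adjusted p = 0.0191) lost its call without either mesenchyme array (adjusted p = 0.099 and 0.0516) or tip replicate 2 (adjusted p = 0.0764). Col16a1 lost it without mesenchyme replicate 2 (adjusted p = 0.16) or tip replicate 2 (adjusted p = 0.0988), and Col6a1 without mesenchyme replicate 1 (adjusted p = 0.121). With the replicate block Col11a1 (-0.67; adjusted p = 0.0198), Col12a1 (-0.52; adjusted p = 0.00912) and Col5a3 (-0.45; adjusted p = 0.0239) were also lower in tip. The other Col12a1 probe set was lower in tip than in mesenchyme without the block (-2.65 ± 0.18; limma over probe sets, adjusted p = 4.43e-05), as was one of Col8a1 (-0.67 ± 0.13; adjusted p = 0.011). Col11a1 was called as well without tip replicate 1 (adjusted p = 0.0261), and Col12a1 and Col5a3 without tip replicate 2 (adjusted p = 0.0251 and 0.0344). Col14a1, lower in tip than in stalk, did not pass against mesenchyme (-0.19 ± 0.13; limma adjusted p = 0.454).

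The promoters of genes with contrasting patterns are shown next. Of the 42 genes, 33 had an entry in the RefSeq promoter table (GRCm38.p6). The 250 bases before the outermost annotated start are given for Col1a2 and Col3a1, which were lower in tip than in stalk and mesenchyme. Also given are Col6a1 and Col8a2, whose stalk arrays lay highest, although in the reported fit only Col8a2 was called against mesenchyme. The last is Col18a1, which was higher in both bud tissues than in mesenchyme. Each sequence runs 5′ to 3′ on the gene's strand and ends at the base before the start. Capitals mark the CCAAT box (CCAAT or ATTGG), the TATA box letters (TATAA or TTATA) and the GC box (GGGCGG or CCGCCC), searched on both strands, and overlapping matches run together.
Col1a2, chr6:4505368-4505617, plus strand: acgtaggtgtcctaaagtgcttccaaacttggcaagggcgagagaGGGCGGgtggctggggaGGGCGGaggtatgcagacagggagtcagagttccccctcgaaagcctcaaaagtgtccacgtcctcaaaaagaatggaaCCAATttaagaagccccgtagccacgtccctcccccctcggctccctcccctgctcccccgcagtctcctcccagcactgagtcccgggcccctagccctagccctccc
Col3a1, chr1:45311288-45311537, plus strand: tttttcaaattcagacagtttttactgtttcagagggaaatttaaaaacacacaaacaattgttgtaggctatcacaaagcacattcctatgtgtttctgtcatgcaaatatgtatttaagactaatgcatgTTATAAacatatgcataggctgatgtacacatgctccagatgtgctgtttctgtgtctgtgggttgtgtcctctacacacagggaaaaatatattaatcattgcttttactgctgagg
Col6a1, chr10:76726045-76726294, minus strand: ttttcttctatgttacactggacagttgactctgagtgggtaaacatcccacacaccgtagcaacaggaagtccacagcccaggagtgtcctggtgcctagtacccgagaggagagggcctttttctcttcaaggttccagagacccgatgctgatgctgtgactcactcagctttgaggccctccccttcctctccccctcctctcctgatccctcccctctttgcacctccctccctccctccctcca
Col8a2, chr4:126286544-126286793, plus strand: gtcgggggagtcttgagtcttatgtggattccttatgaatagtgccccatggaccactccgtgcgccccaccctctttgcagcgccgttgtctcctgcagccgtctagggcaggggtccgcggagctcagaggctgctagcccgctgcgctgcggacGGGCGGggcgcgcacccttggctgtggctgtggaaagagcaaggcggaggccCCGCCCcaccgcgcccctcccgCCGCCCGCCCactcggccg
Col18a1, chr10:77166531-77166780, minus strand: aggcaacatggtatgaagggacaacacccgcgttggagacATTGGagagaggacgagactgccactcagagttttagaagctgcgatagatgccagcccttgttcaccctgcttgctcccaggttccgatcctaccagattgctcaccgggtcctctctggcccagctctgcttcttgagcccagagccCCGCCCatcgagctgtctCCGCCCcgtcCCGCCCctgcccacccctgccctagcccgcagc

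Col1a2 held a CCAAT box 109 bases before its start and 2 GC boxes, and Col3a1 held TATA box letters at 117 and 118 bases, which overlap on opposite strands. Col18a1 held an ATTGG match 210 bases before its start and 3 GC boxes, Col8a2 held 4 GC boxes, and Col6a1 held none of these letters. Among all 32851 promoter windows of this length, 33.8% held a CCAAT box, 22.8% the TATA letters and 32.7% a GC box. Of 36 windows of collagen genes, 13 held a CCAAT box, 7 the TATA letters and 21 a GC box. These matches are descriptions of the letters and not binding sites.

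Genes that modify, cut, bind or degrade collagens were described next, from lists of 18 modification and folding genes, 10 processing and crosslinking genes, 8 receptors and 10 degradation genes measured. Between tip and stalk 8, 4, 2 and 5 of them were lower in tip, against 6.97% of all genes, and 0 in each list were higher in limma (0, 0, 1 and 0 at an unadjusted p under 0.05), against 2.86% of all genes. The list medians were -0.48, -0.31, -0.03 and -0.59, beside 0.07 over all genes. Between stalk and mesenchyme only P3h2, a prolyl hydroxylase gene, was called among the 4 lists, at 7.24 and 7.56 in stalk and 6.61 and 6.67 in mesenchyme (difference 0.77 ± 0.14; limma adjusted p = 0.0225). Over all genes 4.30% were higher and 1.24% lower in stalk, so 1 call in lists of this size is not above the background.

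The 4 processing and crosslinking genes called between tip and stalk were Pcolce, Lox, Adamts3 and Loxl3, and the other 6 of that list were not called. Pcolce, whose product enhances the removal of a propeptide from fibrillar procollagen, had 7.73 and 7.38 in tip, 10.57 and 10.54 in stalk and 10.46 and 10.23 in mesenchyme, 7.99-fold lower in tip than in stalk (difference -2.998 ± 0.16; limma adjusted p = 4.14e-05). Lox, the gene of the crosslinking enzyme lysyl oxidase, had 5.01 and 4.93 in tip, 7.40 and 7.13 in stalk and 7.29 and 6.81 in mesenchyme (tip minus stalk -2.29 ± 0.19; limma adjusted p = 0.000246). Stalk and mesenchyme values overlapped for Lox and lay close together for Pcolce. The procollagen protease gene Adamts3 (-1.29 ± 0.25) and the lysyl oxidase family gene Loxl3 (-0.96 ± 0.13) were lower in tip than in stalk as well.

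Of the genes acting during folding, Fkbp14, a prolyl isomerase gene of the endoplasmic reticulum, had 7.01 and 6.79 in tip, 8.72 and 8.62 in stalk and 8.68 and 8.52 in mesenchyme (tip minus stalk -1.77 ± 0.14; limma adjusted p = 0.000226). The prolyl hydroxylase genes P4ha2 (-1.47 ± 0.23), P3h3 (-1.35 ± 0.15) and P3h1 (-1.33 ± 0.17) were lower in tip than in stalk. Against mesenchyme, 8 of the 18 genes of this list (44.4%) were lower in tip, against 8.37% of all genes. Only 1 (5.56%) was higher, against 7.38% of all genes, which is near the background. It was the lysyl hydroxylase gene Plod1 (0.66 ± 0.17; limma adjusted p = 0.0354), which is named here after its value was seen.

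The discoidin domain receptors, tyrosine kinases that bind collagen, differed from each other. Ddr2 had 4.81 and 4.37 in tip, 7.72 and 7.71 in stalk and 7.93 and 7.50 in mesenchyme, 8.74-fold lower in tip than in stalk (difference -3.13 ± 0.20; limma adjusted p = 8.61e-05). Ddr1, the receptor known from epithelia, had 10.81 and 10.61 in tip, 10.80 and 10.66 in stalk and 10.52 and 10.24 in mesenchyme (tip minus stalk -0.02 ± 0.15; limma adjusted p = 0.952), and is likewise named after its values were seen. Mrc2, an uptake receptor for collagen, was lower in tip (-1.35 ± 0.16). In the degradation list Timp3 (-1.73 ± 0.12) and Timp1 (-1.28 ± 0.18), which inhibit metalloproteinases, were lower together with the proteinase genes Mmp2 (-1.67 ± 0.13) and Mmp16 (-0.82 ± 0.12).

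**Figure D5:**
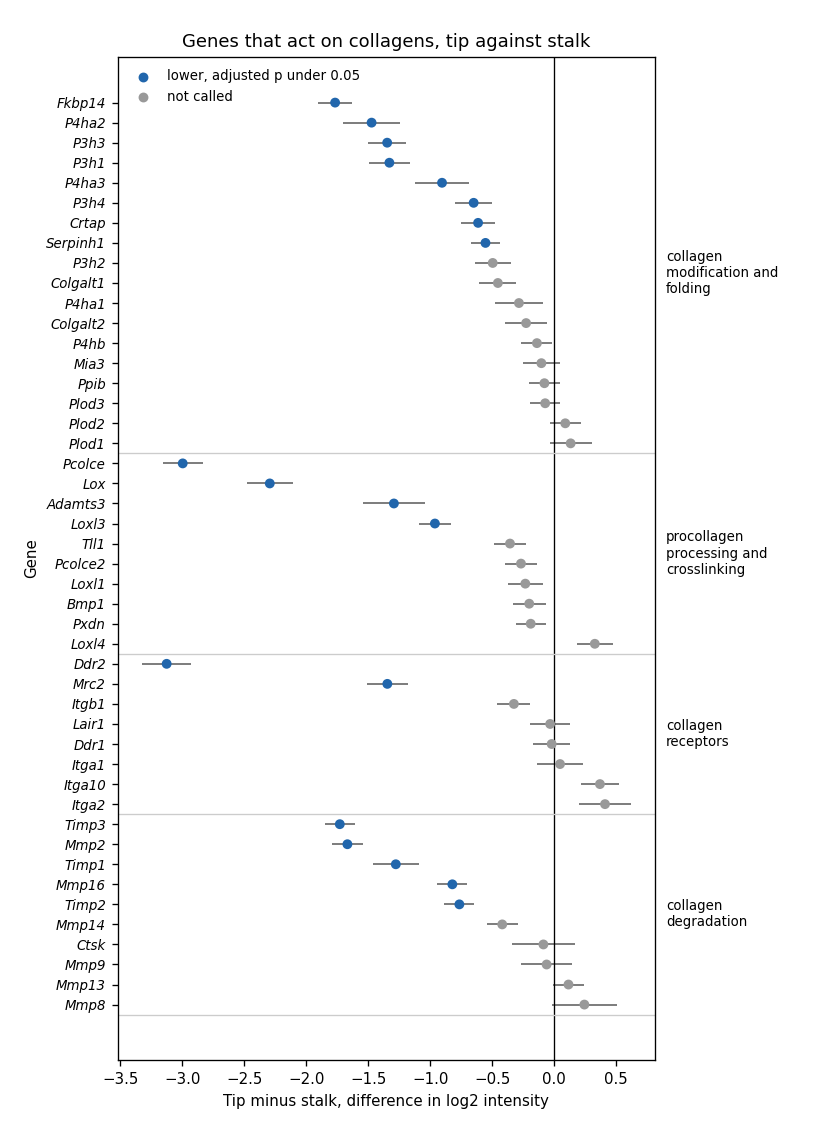
Difference in log2 intensity of tip minus stalk for 46 measured genes that modify, process, bind or degrade collagens, grouped by list, with bars of 1 standard error of the limma fit. The genes called are all on the negative side, led by Ddr2 (-3.13) and Pcolce (-2.998).

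The mIMCD-3 line could be described only by size, because it has 1 array, and the cell line and the later addition of its array to the set cannot be told apart. It lay more than 1 log2 unit below the lowest tissue array for 12 of 42 collagen genes, against 5.13% of all genes, and more than 1 unit above the highest for 1, against 6.31%. The 12 genes were Col1a2, Col2a1, Col3a1, Col5a1, Col5a2 and Col11a1 of the fibrillar class, Col9a1 and Col14a1 of the FACIT class, Col4a1, Col4a2, Col6a3 and Col26a1. Col3a1 stood at 4.70 in mIMCD-3, 4.42 below its lowest tissue value, which was in a tip array. Col1a1 stood at 5.73, which was 0.19 below the lower tip array. The median of the 8 stroma markers was 4.60 in mIMCD-3, against 7.83 and 7.31 in tip. Their summed intensity was 1871 in mIMCD-3, to which Foxd1 at 9.57 and Tcf4 at 9.53 contributed most, while Tcf21 stood at 3.20, against 9.77 and 9.53 in tip, and both Tcf genes are named here with their values known.

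Of the 6 type IV genes, Col4a1, Col4a2 and Col4a4 lay more than 1 log2 unit outside the tissue range in mIMCD-3 by their brightest probe sets. Col4a1 stood at 5.14 in mIMCD-3, against 9.95 to 11.11 in the tissues, and Col4a2 at 4.38, against 9.09 to 9.43. Both values were below the array median of mIMCD-3 (5.40), but the second Col4a1 probe set read 6.30 there, above it, against 9.24 to 9.84 in the tissues. Col4a4, by contrast, had 7.09 in mIMCD-3, 2.84 above the highest tissue array, and its other probe sets stood at 6.89 and 5.51 in the line. Col4a3, the neighbour of Col4a4, had 5.80 in mIMCD-3, against 4.37 to 5.18 in the tissues. Its other probe set read 5.13 in mIMCD-3, against 3.05 to 3.34 in the tissues, which is more than 1 log2 unit above them. Col4a5 at 9.49 and Col4a6 at 6.95 lay 0.45 and 0.26 above their highest tissue values. Col18a1 at 10.77 was close to its values in tip and stalk.

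A total of 18 collagen genes were called in none of the 3 tissue comparisons, of which 9 lay below the array median on all 7 arrays. They were 2 fibrillar, 4 FACIT, 5 basement membrane, 2 beaded filament and 2 short chain genes, with Col15a1, Col17a1 and Col7a1. Of the collagen genes, 27 had several probe sets. Between tip and stalk 36 of 82 probe sets were called lower and 0 higher, and 6 genes had both called and uncalled probe sets. The shares called over all probe sets of the array were not computed, so these counts have no background beside them. No gene had probe sets called in opposite directions in any of the 3 comparisons.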

How the data were processed

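Gene expression was measured in 6 tissue arrays and 1 mIMCD-3 array. The intensity values were deposited on a linear scale, between 5.08 and 19587, and the authors had recalculated them over all 7 arrays by robust multichip analysis (RMA), per the labels and the series' design text. RMA gives no detection calls and compresses differences of dim genes, and its version is not given in the sources used here. Values were converted to log2. Of 45101 probe sets, 34945 list 1 gene in the array annotation, and for each of 18193 genes the brightest of these, by its mean over the 7 arrays, was used. No gene was filtered out, and all 42 collagen genes were tested.

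The 6 tissue arrays were fitted with limma 3.58.1 in R 4.3.3, with 1 coefficient per group, 3 residual degrees of freedom and two-sided tests. P-values were adjusted by Benjamini-Hochberg over all genes and called under 0.05. On simulated data of 18193 genes for tip against stalk, 98% of differences of 2 log2 units and 59% of differences of 1 unit were recovered. In it 100 genes were changed by each size in tip alone, and noise was independent between arrays. It left out the correlation of replicates given below, so these rates need not hold for the real arrays. The median intensity per array was 45.7 to 49.2 in tissue and 42.1 in mIMCD-3, and precision is limited by the number of arrays. Replicate deviations correlated between groups at 0.43 (tip and stalk), 0.57 (tip and mesenchyme) and 0.39 (stalk and mesenchyme), all above 0.1, so same-numbered arrays were treated as pairs in a second fit with a replicate block, although the labels state no pairing. Other alternatives were trend and robust variance, the mean of a gene's probe sets, a filter on dim genes, median centring, fits of the compared groups alone, and leaving out each array.

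The collagen genes, classes and lists were chosen with earlier results of these data known. All collagen genes are accounted for, and those called in any comparison are given by array. From the lists of collagen-related genes up to 4 called genes per comparison with the largest absolute difference were eligible to be named. Marker lists covered epithelium, nephron progenitors, renal stroma, smooth muscle, endothelium, cartilage and macrophages. Promoter sequences and gene order are from RefSeq (GRCm38.p6). Tables and plots used Python 3.11.15 with matplotlib 3.10.9.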

Additional observations from a re-analysis of the deposited data

Results flagged for a closer look

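For 3 collagen genes the difference from mesenchyme had opposite directions in the bud tissues, being called higher in stalk and lower in tip. The difference between tip and stalk was itself called for each, at -3.62 log2 units for Col23a1, -2.09 for Col8a2 and -1.72 for Col6a3. Their differences from mesenchyme were -2.06 in tip and 1.56 in stalk for Col23a1, -1.02 and 1.07 for Col8a2, and -1.06 and 0.66 for Col6a3, where the stalk call was lost without any 1 stalk or mesenchyme array (adjusted p between 0.182 and 0.376). Groups of 2 arrays are too small for a check of single outlying arrays.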

How the results depend on the processing

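The number of collagen genes lower in tip than in stalk was 18 to 21 under the alternatives that kept all arrays, against 20 as reported, and 15 to 21 when an array was left out. Lower than in mesenchyme were 16 to 20 collagen genes, against 17, and 15 to 18 when an array was left out. Collagen genes higher in tip than in stalk numbered 0 as reported, 3 with the replicate block, 2 with trend and robust variance, 2 without the dimmest 40% of genes, and 0 to 3 when an array was left out, the highest without tip replicate 1. For stalk against mesenchyme, 5 collagen genes were higher as reported, 11 with the replicate block, 9 with trend and robust variance, 8 with arrays centred on their medians and 8 with the compared groups alone. Leaving out an array gave 4 to 8, with 8 without either tip array, which by construction is the fit of the compared groups alone. Lower in stalk were 0 as reported and 1 with the replicate block, trend and robust variance, the mean of probe sets, the filter on dim genes, median centring or the compared groups alone, and 0 to 1 when an array was left out. By averaging probe sets, 2 genes of mIMCD-3 lay above the tissues in place of 1. The stalk-to-mesenchyme difference of Col9a3 turned to -0.055 without mesenchyme replicate 1, was 0.195 without mesenchyme replicate 2 and 0.07 as reported, and was not called in any of these, but was called with the mean of its probe sets (0.60; limma adjusted p = 0.0254). The cause of these shifts was not tested. No collagen gene called in the reported fit lost its call with the replicate block.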
